A study of Mus musculus with 6 samples.

Results

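Strongly open chromatin that was stable across liver NK cells and liver ILC1s was defined by 2 criteria on fragment counts. A region had to reach a normalized count (CPM) of at least 50 in each of 6 libraries, and its highest CPM had to be less than 1.5 times its lowest. CPM is the count of a region per 1000000 fragments counted over all regions of the library, with no other normalization. It is not corrected for the length of a region, which was not analysed here, so a level reflects both the width of a region and how open it is. Of 107945 regions, 3931 (3.64%) met both criteria, and they are called stable open regions here. Since these same values chose the regions, their levels and the differences between cell types within them are given as a description and not as tests. The assay was ATAC-seq, with 3 libraries of each cell type sorted from healthy livers of male C57BL/6J mice aged 24 weeks. All libraries are labelled control, and no transgene, allele or treatment is named for either cell type. Both cell types were gated as negative for CD3 and F4/80 and positive for NK1.1, ILC1s as CD49a-positive and NK cells as CD49a-negative, and the methods print CD49b-negative for both and list no antibody to CD49a. Whether the libraries of a cell type came from separate or pooled animals was not stated, so the spread between them may be technical.

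NK cells and ILC1s together form the group 1 innate lymphoid cells. Both rely on the transcription factor T-bet and produce interferon gamma, but NK cells circulate and are strongly cytotoxic, whereas ILC1s reside in tissue. The transposase Tn5 inserts sequencing adapters mainly into DNA that is not wrapped in nucleosomes, so the number of fragments from a region measures how open it is. Chromatin that is open to a like extent in related cell types is known to include promoters of genes used by nearly all cells and sites bound by the insulator protein CTCF, whereas cell type-specific openness is found more often at enhancers. The regions are named here by the running number of the count table. Their positions, genes and sequences were not analysed here, so which of them are promoters, and whether marker loci match the labelled cell types, was not examined.

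The libraries held between 8526923 and 12302602 fragments in NK cells and between 5687282 and 6916979 in ILC1s. Every NK cell library was deeper than every ILC1 library, so effects of depth and of cell type cannot be told apart. Within each cell type the libraries are called shallowest, middle and deepest by these totals, because the columns do not say which numbered sample they are. Every stable open region held at least 285 fragments in each library, and its counting error in the shallowest ILC1 library was at most 5.92% of the value. The median stable open region held between 474 fragments in that library and 1012 in the deepest NK cell library.

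The stable open regions made up a small part of the regions and a large part of the signal. They took 39.7%, 38.0% and 37.3% of the fragments of the shallowest, middle and deepest NK cell library, and 38.1%, 38.4% and 37.8% of those of the ILC1 libraries in the same order. The means were 38.3% ± 1.26 in NK cells and 38.1% ± 0.321 in ILC1s (SD, n = 3 each), and the ILC1 values lay within the range of the NK cell values. The mean CPM over the 6 libraries was 83.3 for the median stable open region, compared with 1.2 for the median of all regions. It ranged from 51.1 to 627, with 10% of stable open regions under 60.1 CPM and 10% above 151 CPM.

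The regions with the highest CPM of the data set were nearly all stable. All of the 10 regions with the highest mean CPM met the criteria, as did 49 of the top 50, 95 of the top 100 and 913 of the top 1000. The exception among the top 50, chosen for mention after its values were seen, was peak_42342. It had 328, 312 and 310 CPM in the shallowest, middle and deepest NK cell library, and 242, 203 and 235 CPM in the ILC1 libraries. Its NK cell values all exceeded its ILC1 values, and its highest value was 1.62 times its lowest.

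The region with the highest mean CPM of all was peak_24700. It had 789, 652 and 557 CPM in the shallowest, middle and deepest NK cell library and 586, 586 and 594 CPM in the ILC1 libraries. The ILC1 libraries were nearly equal and lay within the range of the NK cell libraries, which differed among themselves by more than the means of the cell types did. The next, peak_50770, had 646, 576 and 473 CPM in NK cells and 484, 490 and 507 CPM in ILC1s, with the same pattern. Although the groups overlapped, the edgeR fit described further on gave log2 fold changes (ILC1s over NK cells) of -0.24 (adjusted p = 0.0218) and -0.26 (adjusted p = 0.0106) in these regions with TMM normalization. With library totals alone, the adjusted p-values were 0.0698 in peak_24700 and 0.0356 in peak_50770. In peak_105908 the NK cell libraries had 510, 498 and 485 CPM and the ILC1 libraries 441, 433 and 451 CPM. Here the groups did not overlap, and the NK cell mean of 498 ± 12.3 stood above the ILC1 mean of 442 ± 8.88 (SD, n = 3 each). The ranges of the cell types overlapped in peak_91144, with 442, 411 and 363 CPM in NK cells and 403, 415 and 395 CPM in ILC1s. They also overlapped in peak_42158, with 413, 393 and 349 CPM in NK cells and 391, 416 and 404 CPM in ILC1s. In the edgeR fit with TMM normalization the adjusted p-value was 0.00108 in peak_105908, 0.478 in peak_91144 and 0.953 in peak_42158. The p-values of these regions are a description, since the same libraries chose them. In all 5 of these regions the shallowest NK cell library was the highest of the NK cell libraries and the deepest was the lowest.

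The flattest regions were of moderate level. In peak_3584, with the smallest ratio of highest to lowest CPM (1.02), the NK cell libraries had 62.6, 62.0 and 62.4 CPM and the ILC1 libraries 61.9, 61.9 and 61.2 CPM. In peak_98494 the values were 74.2, 76.0 and 76.6 CPM in NK cells and 74.4, 74.9 and 75.3 CPM in ILC1s. The ratio was 1.04 in peak_70401, peak_15713 and peak_64255, whose mean CPM was 116, 95.9 and 96.4. The 6 libraries of peak_3584 differed by less than the counting error of its 352 fragments in the shallowest ILC1 library alone. Over all stable open regions the median ratio was 1.22. It was under 1.1 in 244 regions, under 1.3 in 2938 and under 1.4 in 3602.

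**Figure D1:**
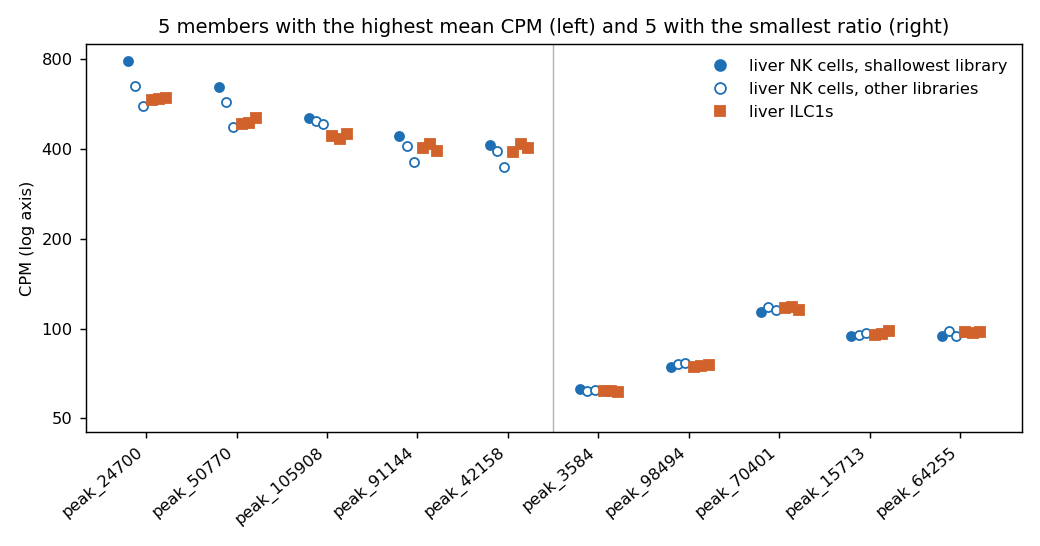
CPM (log axis) in each of the 6 libraries for the 5 stable open regions with the highest mean and the 5 with the smallest ratio of highest to lowest CPM. Circles are NK cell libraries, filled for the shallowest, and squares are ILC1 libraries. In the regions with the highest mean the shallowest NK cell library stands above the other NK cell libraries, up to 789 CPM in peak_24700, while the 6 values of peak_3584 lie between 61.2 and 62.6.

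The values just inside and just outside the criteria were close. The stable open regions with the lowest CPM in any library were peak_88148 and peak_15903, whose values rounded to 50 CPM in the middle NK cell library. Just below, peak_53926 and peak_29304 missed the limit in the deepest NK cell library, where their CPM also rounded to 50. The largest ratios inside the limit were those of peak_55921, with 95, 105 and 106 CPM in NK cells and 74.7, 80.1 and 70.4 CPM in ILC1s, and of peak_63440, with 94.1, 86.9 and 75.8 CPM in NK cells and 67.9, 66.0 and 62.7 CPM in ILC1s. The nearest regions outside, peak_53791 and peak_78049, had ratios that also round to 1.5. In peak_53791 the NK cell libraries had 111, 114 and 108 CPM and the ILC1 libraries 78.4, 83.4 and 75.8 CPM. In peak_78049 they had 52.3, 62.7 and 60.9 CPM and 67.9, 78.5 and 70.4 CPM. The groups did not overlap in any of these 4 regions, with higher values in ILC1s in peak_78049 and in NK cells in the other 3.

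At this level stability was the rule. At least 50 CPM in all 6 libraries was reached by 4348 regions, of which 90.4% were stable and 417 (9.59%) were not. The share of stable regions rose with the lowest CPM of a region. It was 21.2% of the 5915 regions whose lowest library had 5 to 10 CPM, 45.5% of 6882 regions at 10 to 25 CPM, 74.4% of 5164 regions at 25 to 50 CPM, 89.0% of 3278 regions at 50 to 100 CPM and 94.8% of 1070 regions at 100 CPM or more. Counting error fell along the same order, since the median count in the shallowest ILC1 library was 56 fragments in the first of these classes and 795.5 in the last, and its part in the trend was not tested. Among the 4348 regions, grouped by mean CPM, the stable share did not rise steadily. It was 93.5% at 50 to 75 CPM, 86.0% at 75 to 100 CPM, 90.5% at 100 to 150 CPM and 94.4% at 200 to 300 CPM, and all 19 regions above 300 CPM were stable. A region whose mean is close to 50 CPM must have similar values in all libraries to pass the first criterion, which raises the share in the lowest class.

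The 417 regions that reached 50 CPM everywhere but were not stable differed from the stable ones mainly between the cell types. Within NK cells, the median ratio of highest to lowest CPM was 1.18 in these regions and 1.11 in the stable open regions. Within ILC1s it was 1.12 and 1.09. The median fold between the means of the cell types, in either direction, was 1.41 and 1.09. The NK cell mean was the higher in 265 of the 417 regions and the ILC1 mean in 152. The stable open regions were more evenly divided, with 2037 higher on average in NK cells and 1894 in ILC1s on the CPM scale. These contrasts follow in part from the ratio limit itself.

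**Figure D2:**
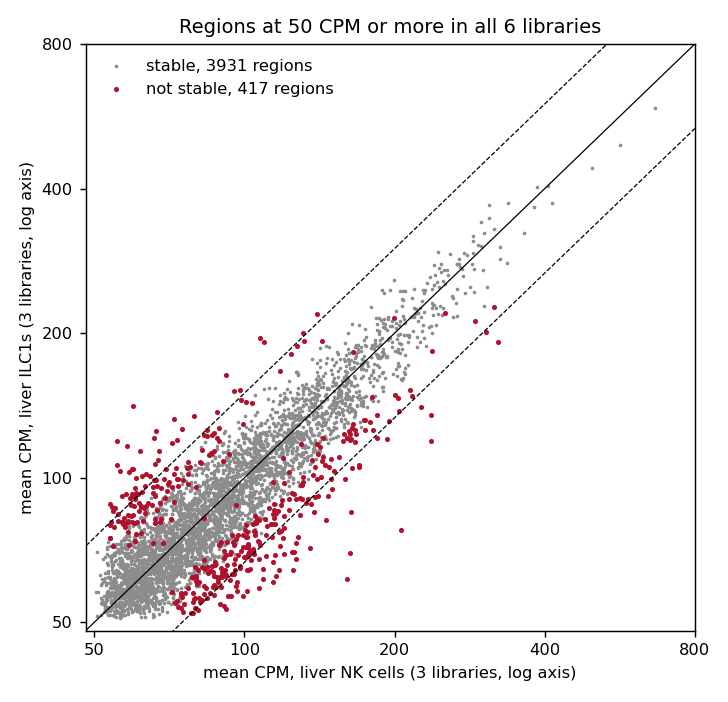
Mean CPM of the 3 ILC1 libraries against that of the 3 NK cell libraries (both log axes) for the 4348 regions with at least 50 CPM in all 6 libraries. Grey points are the 3931 stable open regions and red points the 417 others, the solid line marks equal means and the dashed lines a 1.5-fold difference, and the red points lie on both sides, 265 of them with the higher mean in NK cells.

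Within the narrow window that the criteria allow, libraries of the same cell type were closer to each other than libraries of different cell types. The root mean square difference of log2 CPM over the 3931 regions was between 0.0860 and 0.170 among the 3 pairs within NK cells and between 0.107 and 0.113 among the 3 pairs within ILC1s. It was between 0.186 and 0.236 for the 9 pairs from different cell types. The criteria used these same values, so the order of the pairs is a description. Counting error alone would give between 0.0651 and 0.0914. The pairs of ILC1 libraries thus differed by 1.21 to 1.28 times the counting error, the middle and deepest NK cell library by 1.32 times, and the pairs with the shallowest NK cell library within NK cells by 2.00 and 2.44 times. The pairs between cell types differed by 2.40 to 2.88 times the counting error. On the first principal component of log2 CPM over the stable open regions, which held 62.1% of the variance, the NK cell libraries scored -6.96, -5.68 and -4.27 from shallowest to deepest and the ILC1 libraries 5.11, 6.13 and 5.67. The second component (19.7%) set the shallowest NK cell library, at 5.64, apart from the middle (-2.43) and the deepest (-4.50).

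**Figure D3:**
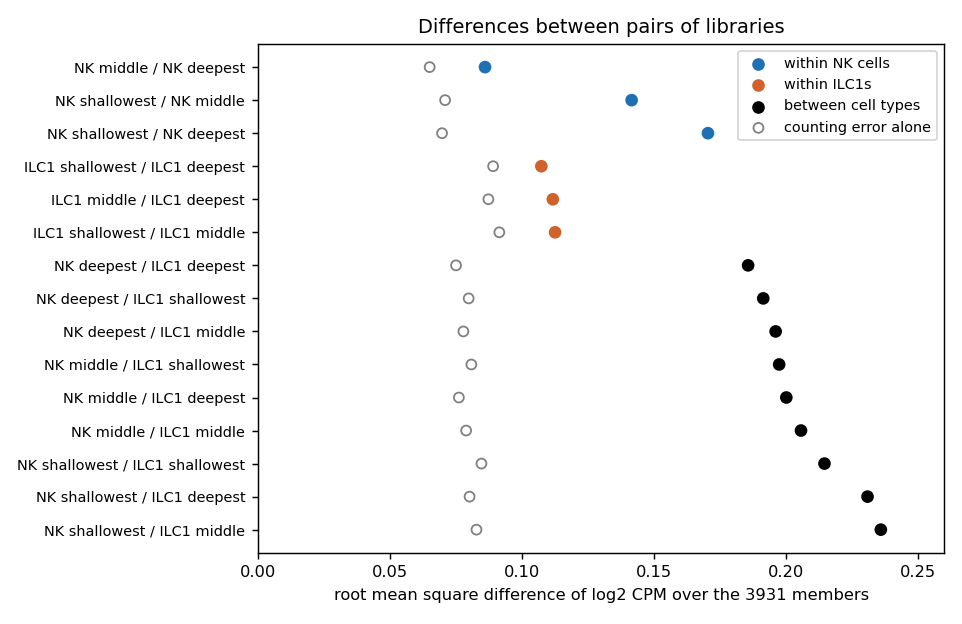
Root mean square difference of log2 CPM over the stable open regions for the 15 pairs of libraries (filled points, coloured by kind of pair) and the value that counting error alone would give (open circles). Pairs between cell types lie between 0.186 and 0.236, above all pairs within a cell type, and the pairs of the shallowest NK cell library with the other NK cell libraries lie furthest from counting error among replicates.

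The shallowest NK cell library was the one that set the highest value most often. It held the highest CPM in 1457 of the 3931 stable open regions (37.1%), compared with 16.7% for an even share over 6 libraries, and the next was the middle ILC1 library with 805. The lowest CPM was more evenly distributed, between 548 regions in the shallowest and 884 in the deepest NK cell library. The excess of the shallowest NK cell library was larger in regions of higher CPM. Its median log2 ratio to the mean of the other NK cell libraries was 0.03 in regions with a mean of 50 to 75 CPM, 0.06 at 75 to 100, 0.09 at 100 to 150, 0.13 at 150 to 200 and 0.16 at 200 CPM or more. In the last class it was the higher in 92.0% of 138 regions. The deepest NK cell library moved the other way, from -0.03 to -0.14 in the same classes. The ILC1 libraries stayed between -0.03 and 0.04 in every class.

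**Figure D4:**
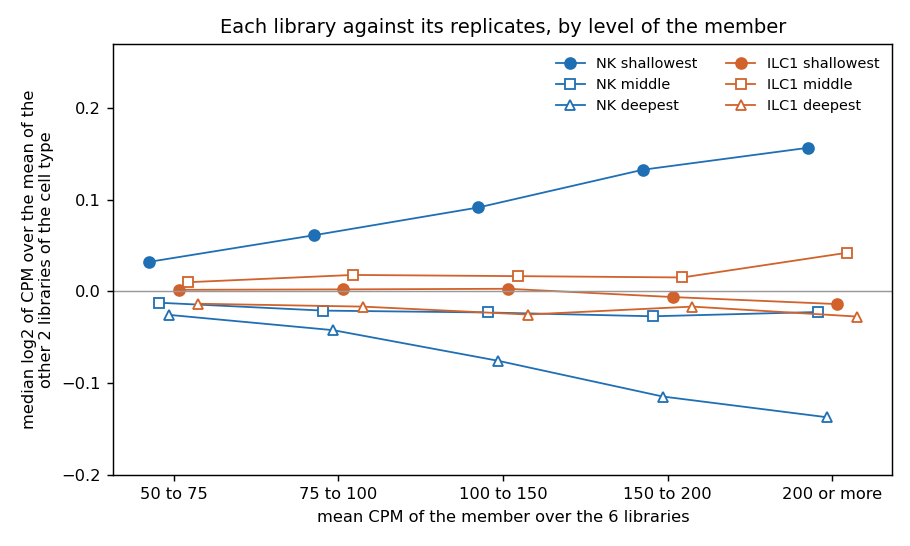
Median log2 ratio of the CPM of each library to the mean of the other libraries of its cell type, for stable open regions in 5 classes of mean CPM. NK cell libraries are blue and ILC1 libraries orange, and the shallowest NK cell library rises from 0.03 to 0.16 while the deepest falls to -0.14 and the ILC1 libraries stay near 0.

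How far stability holds in a library that did not choose the regions was read by leaving out each library in turn. The criteria applied to the other 5 libraries chose between 3984 and 4193 regions, and between 93.8% and 98.7% of these also met the criteria with the 6th library added. The lowest share was that of the shallowest NK cell library, where 262 of 4193 regions were lost. Its CPM lay between the lowest and the highest of the other 5 in 45.9% of the regions, above them in 37.5% and below them in 16.6%. Each of the other libraries lay between the extremes of the rest in 62.6% to 73.5% of the regions chosen without it. At least 50 CPM was kept in the left-out library by 97.7% to 99.2% of the regions.

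The same question was put across the cell types by applying both criteria to the 3 libraries of one cell type and reading the 3 of the other. The NK cell libraries alone chose 5123 regions, of which 4334 (84.6%) had at least 50 CPM in all ILC1 libraries and 3931 (76.7%) met both criteria over all 6. The ILC1 libraries alone chose 5142 regions, of which 4347 (84.5%) had at least 50 CPM in all NK cell libraries and the same 3931 (76.4%) met both criteria. Of the 1192 NK-chosen regions that failed, 358 missed the level alone, 403 the ratio alone and 431 both. Of the 1211 ILC1-chosen regions that failed, the numbers were 368, 416 and 427. Large losses of accessibility were rare. All 3 ILC1 libraries were under 25 CPM in 72 of the NK-chosen regions (1.41%) and under 5 CPM in 16, and all 3 NK cell libraries were under 25 CPM in 53 of the ILC1-chosen regions (1.03%) and under 5 CPM in 1. The log2 difference between the means (ILC1s over NK cells) was within 0.25 of 0 in 66.8% of the NK-chosen and 67.1% of the ILC1-chosen regions. By the edgeR test over all regions described next, at an adjusted p-value under 0.05 together with a fold over 1.5, 472 NK-chosen regions (9.21%) and 398 ILC1-chosen regions (7.74%) were called, against 31.5% of all 106376 regions tested. At the same limits, 15.6% of all tested regions were called higher in NK cells and 15.9% higher in ILC1s. The called NK-chosen regions comprised 439 that were higher in NK cells and 33 that were higher in ILC1s, and the called ILC1-chosen regions 286 higher in ILC1s and 112 in NK cells. The choice favours high values in the cell type that chose, and so bears on these directions.

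**Figure D5:**
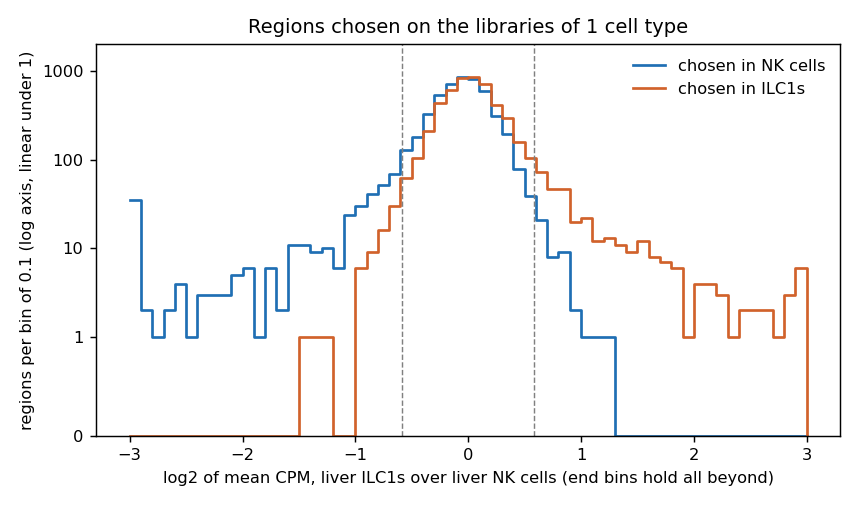
Number of regions (log axis, linear under 1) by the log2 ratio of mean CPM in ILC1s over NK cells, in bins of 0.1, for the 5123 regions chosen on the NK cell libraries alone and the 5142 chosen on the ILC1 libraries alone. Dashed lines mark 1.5-fold, the end bins hold all values beyond them, and both distributions peak near 0 with a long tail towards the cell type that chose.

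Small differences inside the stable open regions were read from a fit over the whole table. All regions with at least 1 fragment were tested with the quasi-likelihood test of edgeR after TMM normalization, which rescales library totals so that most regions show no change. As the criteria used the same libraries, the counts of called regions are a description. With an adjusted p-value under 0.05 and no limit on the fold, 1275 of the 3931 regions (32.4%) were called, where the share over all tested regions was 36.9%. They comprised 957 (24.3%) that were higher in NK cells, where all tested regions gave 18.7%, and 318 (8.09%) that were higher in ILC1s, where they gave 18.2%. This imbalance depended on the scaling. With library totals alone, the scaling that defined the regions, 666 were higher in NK cells (all regions 17.0%) and 607 in ILC1s (all regions 19.7%). The median log2 fold change (ILC1s over NK cells) was -0.07 in the stable open regions and 0.02 over all tested regions with TMM, and -0.01 and 0.09 with totals alone. Under 4 scalings, namely TMM, the size factors of DESeq2, library totals and the totals of the stable open regions, 649 regions (16.5%, the same share as of all tested regions) were called higher in NK cells in each, 318 (8.09%, all tested regions 18.2%) were called higher in ILC1s in each, 2309 (58.7%, all tested regions 61.5%) were called in none and 0 were called in opposite directions. After thinning every library to the smallest total, an alternative added after seeing the data, 536 (13.6%, all tested regions 15.0%) were higher in NK cells and 372 (9.46%, all tested regions 16.1%) in ILC1s. With the filterByExpr filter of edgeR, 738 (18.8%, all regions kept by it 28.3%) were higher in NK cells and 521 (13.3%, all regions kept by it 28.4%) in ILC1s. The number higher in ILC1s fell to 169 without the middle NK cell library (4.30%, all tested regions 14.7%) and 162 without the middle ILC1 library (4.12%, all tested regions 17.1%). The number higher in NK cells fell to 636 without the shallowest ILC1 library (16.2%, all tested regions 15.4%) and 499 without the deepest (12.7%, all tested regions 14.0%). It was highest, at 1089, without the deepest NK cell library (27.7%, all tested regions 17.6%).

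All of these differences were small, and the criteria largely fix this in advance. The ratio limit keeps the fold between the mean CPM of the cell types under 1.5 in every stable open region. The largest fold change in the edgeR fit was 1.47. With a fold change over 1.5, 0 of them had an adjusted or an unadjusted p-value under 0.05, by edgeR or by DESeq2. Without the fold limit, 1647 (41.9%, all tested regions 44.3%) had an unadjusted p-value under 0.05 by edgeR and 1362 (34.6%, all tested regions 33.2%) by DESeq2. The 95% interval of the fold change lay wholly within 1.5-fold in both directions in 3863 of the 3931 regions (98.3%, all tested regions 12.2%) and within 1.3-fold in 2782 (70.8%, all tested regions 5.88%). Among the 417 regions at 50 CPM or more in all libraries that missed the ratio limit, the shares were 19.9% and 1.92%. The criteria bear on both the centre and the width of these intervals, so these contrasts are in part built in. The interval held no change at all in 2284, excluded it but stayed within 1.5-fold in 1579, and reached past 1.5-fold in 68. The median half-width of the interval was 0.16 on the log2 scale, from 0.17 at a mean of 50 to 75 CPM to 0.14 at 200 to 300 CPM, whereas the median over all tested regions was 0.98. The 3 libraries of one cell type all exceeded the 3 of the other in 1786 stable open regions (45.4%), close to the 44.9% of all tested regions. They were 923 with higher values in NK cells (all regions 22.0%) and 863 in ILC1s (all regions 22.8%).

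The stable open regions with the smallest p-values in the edgeR fit lay towards the ratio limit. In peak_84164 the NK cell libraries had 112, 110 and 102 CPM and the ILC1 libraries 77.0, 75 and 77.8 CPM. The groups were clearly separated, and the log2 fold change was -0.55 (95% interval -0.71 to -0.40). In peak_47925 the values were 128, 138 and 136 CPM in NK cells and 99.0, 100 and 98.2 CPM in ILC1s, with a log2 fold change of -0.50 (-0.64 to -0.35). In peak_89411 they were 167, 170 and 176 CPM in NK cells and 125, 137 and 120 CPM in ILC1s, with a log2 fold change of -0.49 (-0.64 to -0.35). These 3 regions were higher in every NK cell library than in any ILC1 library. In the other direction, peak_14069 had 108, 103 and 104 CPM in NK cells and 152, 149 and 145 CPM in ILC1s, with a log2 fold change of 0.44 (0.30 to 0.58). In peak_86596 the NK cell libraries had 79.7, 81.7 and 88.9 CPM and the ILC1 libraries 119, 118 and 119 CPM. In peak_52120 they had 81.6, 80.0 and 84.1 CPM and 118, 117 and 113 CPM. The log2 fold change was 0.44 in both, and all ILC1 values exceeded all NK cell values. The ratio limit thus kept regions whose groups did not overlap and whose fold change was up to 1.47.

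The running number of the regions is a feature that the criteria did not use. Regions with adjacent numbers resembled each other, with a correlation of log2 mean CPM of 0.37 over 107944 pairs of regions 1 number apart and 0.025 over 107845 pairs 100 apart. These pairs are from the same 6 libraries, and whether adjacent numbers lie next to each other in the genome was not examined. Stable open regions were found along the whole range of numbers, making up between 3.04% and 4.56% of each of 20 equal parts. Among the 7628 regions 1 number away from a stable open region, 513 (6.73%) were stable open regions themselves, compared with 3.64% of all regions. Most stable open regions (3418) had no other beside them, 227 pairs and 17 runs of 3 were found, and the longest runs were 2 of 4 regions each.

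One of these runs comprised peak_24102 to peak_24105, with mean CPM of 101.5, 63.3, 143 and 138. In peak_24103 all ILC1 values (71.0, 65.4 and 68.4 CPM) exceeded all NK cell values (58.4, 54.5 and 62.1 CPM), and the same held for peak_24104, with 151, 156 and 157 CPM in ILC1s and 130, 134 and 130 CPM in NK cells. In peak_24102 and peak_24105 the ranges of the cell types overlapped. The other run comprised peak_33359 to peak_33362, with mean CPM of 64.5, 133, 76.4 and 67.0. In peak_33361 the NK cell libraries had 80.5, 90.9 and 84.4 CPM and the ILC1 libraries 67.3, 68.7 and 66.9 CPM. There the NK cell values were all higher, whereas in peak_33359 all ILC1 values (67.5, 65.7 and 70.8 CPM) were above the NK cell values (59.3, 63.6 and 60.1 CPM). Between them, the ranges overlapped in peak_33360. In peak_33362 the NK cell values (69.2, 70.9 and 71.6 CPM) were again all above the ILC1 values (58.7, 64.7 and 66.8 CPM). Regions of 1 run thus did not all have the higher values in the same cell type, although the directly adjacent regions without overlap did.

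The neighbours of stable open regions were read outside the strongly open regions, so they had by choice under 50 CPM in at least 1 library, with no limit on their ratio. Leaving out regions with at least 50 CPM in all libraries, 7039 tested regions lay 1 number from a stable open region. Of these, 2269 (32.2%) were called by edgeR at the same limits of adjusted p-value and fold. This was close to the 31.5% of all tested regions and to the 32.7% of those outside the strongly open ones. The neighbours of stable open regions had more fragments (median of mean CPM 3.22) than the 102028 tested regions outside the strongly open ones as a whole (1.13), and the share called varies with level. At 1 to 5 CPM, 45.2% of 2027 neighbours were called and 51.5% of regions not next to a stable open region. At 5 to 20 CPM it was 42.7% of 1774 neighbours and 52.1% of the rest, and at 20 to 50 CPM 19.4% of 972 neighbours and 24.2% of the rest. In the remaining classes the shares were close to those of all tested regions outside the strongly open ones, with 17.4% of 2122 neighbours against 17.8% under 1 CPM and 25.7% of 144 neighbours against 25% at 50 CPM or more. In the fits that each left out 1 library, the share among neighbours at 5 to 20 CPM minus that of the rest was between -9.69 and -8.39 percentage points. It was between -7.01 and -5.60 at 1 to 5 CPM and between -4.74 and -3.95 at 20 to 50 CPM. These shares were compared without a test. The 751 such neighbours of the 417 regions that were not stable had a median of 5.43 CPM, and 39.4% of them were called. At matched level, 51.7% of them were called at 1 to 5 CPM (all tested regions outside the strongly open ones 51.0%), 50.4% at 5 to 20 CPM (51.1%) and 30.1% at 20 to 50 CPM (23.6%). Under 1 CPM the share was 14.0% of 157 neighbours (17.8%), and at 50 CPM or more it was 47.8% of only 23 neighbours (25%). Together the neighbours of stable open regions that were not themselves among the 4348 strongly open regions took 6.17%, 6.39% and 6.41% of the fragments of the NK cell libraries, from shallowest to deepest, and 6.48%, 6.38% and 6.45% of those of the ILC1 libraries. These ranges overlapped, and the means of 6.32% ± 0.131 and 6.44% ± 0.0496 (SD, n = 3 each) gave a two-sided p = 0.3 in an exact permutation test, where 3 libraries against 3 cannot go below 0.1.

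Used as a scaling reference, the stable open regions gave nearly the same balance of calls over the whole table as library totals alone. When the libraries were scaled by the summed counts of these regions, 32878 regions passed the same limits of adjusted p-value and fold in edgeR, against 33494 with TMM, and 31977 were called in both. Of the calls, 54.2% were higher in ILC1s with the stable open regions as reference (17810 higher in ILC1s and 15068 in NK cells) and 50.5% with TMM. With library totals alone it was 53.9% (17954 and 15329), so most of the shift came with leaving out the TMM factors. The scaling by these regions was close to that by totals alone, with factors relative to the totals between 0.975 in the deepest and 1.04 in the shallowest NK cell library. The regions were chosen on these libraries under that scaling, so this closeness is in part built in.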

How the data were processed

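Deposited values were raw fragment counts per region for 6 libraries. Following their methods and the labels, the authors used Trimmomatic for trimming and Bowtie2 for alignment (build GRCm38, mm10). Fragments from mitochondria, of low quality, in duplicate or inside blacklisted regions were discarded. MACS called peaks in every library, BEDtools merged overlapping ones, and featureCounts counted the fragments. A shift of fragment ends for Tn5 was not given in the sources used here. Replicates were not pooled. Peaks were called in paired-end mode, and a region called in any library was counted in all.

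Columns were assigned to cell types by name. All 6 were used. CPM used column totals. Differences were fitted with edgeR 4.0.16 in R 4.3.3 (TMM, estimateDisp, glmQLFit without the legacy option, cell type as the only term, 106376 regions with at least 1 fragment, Benjamini-Hochberg adjustment over all). The 95% intervals were derived from the same F statistics. DESeq2 1.42.0 was an alternative. The procedure was tested on simulated data that gave every region the same variation between replicates. The real regions differed in this, so the simulation does not show how the fit performs over the whole table. Percent shares were computed here from the deposited counts.

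The stable open regions, the lists and the tests were chosen with earlier results of these data known. Regions named were those with the 5 highest means, the 5 smallest ratios, the 2 nearest to each limit on each side, the 3 smallest p-values per direction and the longest runs of consecutive numbers. No gene list could be read without gene positions. P-values measure the spread between these libraries, and counting errors cover sampling of fragments only.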

Additional observations from a re-analysis of the deposited data

How the results depend on the processing

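The number of stable open regions, 3931, was 3856 with TMM-normalized totals, 3857 with DESeq2 size factors, 3855 after thinning to the smallest total and 4316 with a ratio limit of 2. It was 7775 with a minimum of 25 CPM, 1014 with 100 CPM and 2371 with a ratio limit of 5/4. Leaving out 1 library at a time gave 3984 to 4193. By the form of the criteria, neither this nor a looser limit can lower the number. Of the 3931, between 95.2% and 96.6% were kept under the other scalings and thinning. The number higher in ILC1s by edgeR was 607 with column totals, 521 with filterByExpr and 660 with the totals of the stable open regions (added after seeing the data; 16.8%, all tested regions 19.4%), against 318 with TMM. Leaving out 1 library at a time gave 162 to 454 (454 without the shallowest NK cell library, 11.5%, all tested regions 16.6%), with 169 without the middle NK cell and 162 without the middle ILC1 library. The number higher in NK cells was 536 after thinning (also added), against 957 with TMM. Leaving out 1 library at a time gave 499 to 1089 (1089 without the deepest NK cell library, 27.7%, all tested regions 17.6%), with 636 without the shallowest and 499 without the deepest ILC1 library. Both were 0 with a fold change over 1.5, which the ratio limit largely fixes in advance. With DESeq2 they were 347 (8.83%, all regions 17.1%) and 657 (16.7%, all regions 15.7%). The median log2 difference, -0.01 with totals, was -0.070 with TMM and -0.041 with size factors, and -0.02 to 0.02 without single libraries.

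Of the NK-chosen regions, 76.7% passed in all 6 libraries. The share was 72.9% with TMM, 50.2% with a ratio limit of 5/4, 84.0% with a limit of 2 and 75.3% to 79.2% without single libraries (78.5% and 78.8% without the shallowest and the deepest ILC1 library). Of the ILC1-chosen regions it was 76.4%, and 78.0%, 47.2% and 83.9% in the same settings, 79.4% with 100 CPM and 75.5% to 81.5% without single libraries. The called share of neighbours, 32.2%, was 27.9% with DESeq2 (all regions 28.5%), 40.2% with filterByExpr (44.7%) and 26.7% to 30.9% without single libraries (25.4% to 29.6%), with 30.3% without the shallowest NK cell library. The number of regions called with scaling by the stable open regions was 24161 with DESeq2 and between 26387 and 30325 without each library. The difference in the neighbours' share of fragments, 0.116 percentage points higher in ILC1s, was 0.0411 to 0.159 without single libraries, which like the legacy setting of glmQLFit was added after seeing the data. The causes of these changes were not tested.

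No paired analysis was possible because the column names do not give the sample numbers. The counting error was largest in the shallowest ILC1 library, and its part in the ratios of regions with few fragments was not tested.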

Other observations

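The rows of the count table do not follow the running numbers, and the order of the rows is not explained in the sources used here. The stable open regions stood near the top of the table: they filled all of the first 10 rows, 96 of the first 100 and 927 of the first 1000. Their median place was row 2643 and the last was in row 34441. The median place of the 417 regions that reached 50 CPM in all libraries without being stable was row 4351.

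The variation between replicates that edgeR estimated for each region (biological coefficient of variation) had a median of 0.0641 in the stable open regions, 0.0679 in those 417 and 0.215 over all tested regions. These estimates are drawn towards a trend over all regions. The ratio of highest to lowest CPM within NK cells, which is not, had a median of 1.11 in the stable open regions and 1.18 in those 417. The ratio limit used the same libraries, so lower values in the stable open regions are in part built in.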
